A study of Mus musculus with 4 samples.

Results

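The p53 tumour suppressor gene Trp53, its inhibitor Mdm2, the p53 targets Cdkn1a, Ccng1, Trp53inp1 and Aen, the Cdk inhibitor genes Cdkn1b, Cdkn1c and Cdkn2a, and the lamin gene Lmnb1 were followed in cultured mouse keratinocytes. These 10 genes were a named list, and every probe that carries one of the names was taken, whatever its value. They are 10 of 27670 gene names on the array and had 18 of its 41174 gene probes, in 63 spots, and 5 of these probes were spotted 10 times. The 3 probes of Aen carry the older name Isg20l1 and were joined through the RefSeq gene table. All 18 passed the filter on dim probes.

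Epidermal keratinocytes came from mice of age P3. Of these, the F/- mice (Casp-8F/–K5-Cre) carried Casp8 as a loxP-flanked and a null allele, and the F/+ mice (Casp-8F/+K5-Cre) carried the flanked allele with a wild-type one. Casp8 encodes caspase-8, a protease of cell death signalling, and both genotypes carried K5-Cre, a recombinase that the keratin 5 promoter drives in basal keratinocytes. There were 2 mice per genotype, and RNA was taken from their cultures at passage 1 (early) and passage 3 (late), 8 RNAs in all. On each of 4 two-colour arrays the F/- RNA of a pair of cultures was labelled with Cy3 and the F/+ RNA with Cy5, with 2 arrays per passage. The labels conflict for the Cy5 RNA of the late arrays: the source name says first passage, while title, description and passage entry say the third, which was followed.

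No array had the dyes exchanged, so dye and genotype cannot be told apart in the ratios. A dye effect that is equal on all arrays cancels between passages. Cells were not sorted after plating, and in such bulk RNA fewer cells of a type and less RNA per cell cannot be told apart. The design text gives 2 mice per genotype sampled at both passages, and the pair numbers of the titles were assumed to mark the same mice at both, so that the 4 arrays stand for 2 pairs of animals.

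The p53 protein is a transcription factor that is stabilised by DNA damage and other stress, and Mdm2, itself a p53 target, marks p53 for degradation. Cdkn1a encodes p21, the target through which p53 stops the cell cycle. It belongs with Cdkn1b (p27) and Cdkn1c (p57) to the Cip/Kip inhibitors of cyclin-dependent kinases. Cdkn2a encodes p16Ink4a, an inhibitor of Cdk4 and Cdk6, and, from another first exon, p19Arf, an inhibitor of Mdm2. Cultured primary cells are known to gain Cdkn2a transcripts with passage, and senescent cells are known to lose lamin B1, a protein of the nuclear lamina.

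The starts of these genes are shown because p53 binds DNA at paired half-sites, and because the Cdkn2a locus starts in more than 1 place. RefSeq windows of 250 bases before a transcription start (build GRCm38.p6) were used for 7 of the 10 genes, 10 windows in all. Capitals mark matches to the 10-base p53 half-site consensus and to the GC box, GGGCGG or CCGCCC, searched on both strands. No half-site overlapped a GC box. Of 32851 windows of this length, 7.13% held a half-site and 32.7% a GC box, and a match is a description of the letters only. The upstream start of Cdkn2a (minus strand, chr4:89294620-89294869) and its downstream start (minus strand, chr4:89282193-89282442) differ in base composition, with 40 and 7 CG dinucleotides. GC boxes lie 48 and 14 bases before the upstream start.
Cdkn2a, upstream start: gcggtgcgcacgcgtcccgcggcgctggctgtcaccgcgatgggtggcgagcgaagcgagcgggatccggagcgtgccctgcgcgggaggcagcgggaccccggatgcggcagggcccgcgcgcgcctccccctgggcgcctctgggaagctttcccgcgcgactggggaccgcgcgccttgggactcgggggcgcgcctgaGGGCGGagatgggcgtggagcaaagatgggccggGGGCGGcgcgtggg
Cdkn2a, downstream start: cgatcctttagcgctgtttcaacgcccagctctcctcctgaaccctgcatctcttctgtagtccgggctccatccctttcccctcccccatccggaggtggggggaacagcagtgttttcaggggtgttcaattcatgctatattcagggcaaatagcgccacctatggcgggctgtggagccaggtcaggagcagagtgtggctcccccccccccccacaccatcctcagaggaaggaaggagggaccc
The window of Mdm2 (minus strand, chr10:117710759-117711008) held a half-site 186 bases before the start and GC boxes at 104 and 88. That of the upstream start of Cdkn1a (plus strand, chr17:29090729-29090978) held half-sites at 73 and 51, 22 bases from first base to first base. For Ccng1 only the stretch outside the annotated gene is shown (minus strand, chr11:40755310-40755536), with a half-site 185 bases before the window's start site. Cdkn1b (plus strand, chr6:134920151-134920400) held a GC box at 61 and no half-site.
Mdm2: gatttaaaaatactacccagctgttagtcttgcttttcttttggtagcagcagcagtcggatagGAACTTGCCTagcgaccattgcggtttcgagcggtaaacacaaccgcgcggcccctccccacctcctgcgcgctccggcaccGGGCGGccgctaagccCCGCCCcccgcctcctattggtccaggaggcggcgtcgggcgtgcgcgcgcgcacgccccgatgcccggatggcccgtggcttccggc
Cdkn1a, upstream start: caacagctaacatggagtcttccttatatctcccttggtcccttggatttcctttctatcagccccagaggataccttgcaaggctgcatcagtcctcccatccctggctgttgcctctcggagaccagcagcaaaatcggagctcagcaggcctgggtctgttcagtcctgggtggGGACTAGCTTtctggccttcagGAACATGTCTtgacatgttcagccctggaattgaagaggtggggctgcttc
Ccng1: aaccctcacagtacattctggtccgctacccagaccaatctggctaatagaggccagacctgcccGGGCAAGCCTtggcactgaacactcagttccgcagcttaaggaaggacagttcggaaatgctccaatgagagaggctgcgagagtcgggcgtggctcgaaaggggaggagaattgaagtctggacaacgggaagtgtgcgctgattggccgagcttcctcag
Cdkn1b: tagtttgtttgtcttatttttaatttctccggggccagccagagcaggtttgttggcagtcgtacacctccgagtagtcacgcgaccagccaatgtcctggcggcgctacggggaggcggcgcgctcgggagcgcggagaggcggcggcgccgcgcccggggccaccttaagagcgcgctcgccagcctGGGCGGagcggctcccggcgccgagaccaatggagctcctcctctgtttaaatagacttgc
Trp53 held a half-site at 75 and the second window of Aen one at 121, so 5 of the 7 genes had a window with a half-site. Cdkn1c, Trp53inp1 and Lmnb1 are described by their probes.

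With genotype over both passages, Mdm2 was called higher in F/- cultures, and Cdkn1b lower by 1 of its probes only. With the mean of each pair's arrays as 1 sample, 0 probes of the array were called. Lmnb1 had the lowest mean ratio of the members but did not pass the test. With passage, Cdkn2a rose in both genotypes, from signals not well above background to signals well above it. Cdkn1a, the main arrest gene among p53 targets, passed the test for neither genotype nor passage. Each ratio is a log2 value of F/- over F/+, and each level a normalized log2 intensity of 1 channel. A probe was called at an adjusted p under 0.05 from limma, adjusted over all probes tested.

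Of the 18 member probes, 3 were called for genotype as the mean of both passages, against 8.84% of all probes tested. The 2 higher ones were both probes of Mdm2 (5.85% of all probes were called higher), and the 1 lower one was a probe of Cdkn1b (2.99% called lower). An unadjusted p under 0.05 was reached by 8 member probes and by 29.4% of all. At passage 1, at passage 3, and for late minus early, 0 member probes were called, as were 0% of all probes; 6, 4 and 0 members had an unadjusted p under 0.05, against 20.6%, 20% and 5.83% of all probes. Ratios were above 0 on all 4 arrays for 4 member probes (19% of all probes) and below 0 on all 4 for 4 (19.9%). The last 2 counts lie near the share in all probes. With the mean of each pair's arrays as 1 sample, no probe of the array was called, while the means of the 3 member probes were the same (limma adjusted p between 0.0509 and 0.0545). With the pair as a block, 3242 probes and the same number of member genes, 2, were called. Median centring in place of loess turned the split of all calls from 2081 higher of 3145 to 917 higher of 3967, and called 4 member genes, all lower: Cdkn1b, Trp53inp1, Aen and Lmnb1.

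**Figure D1:**
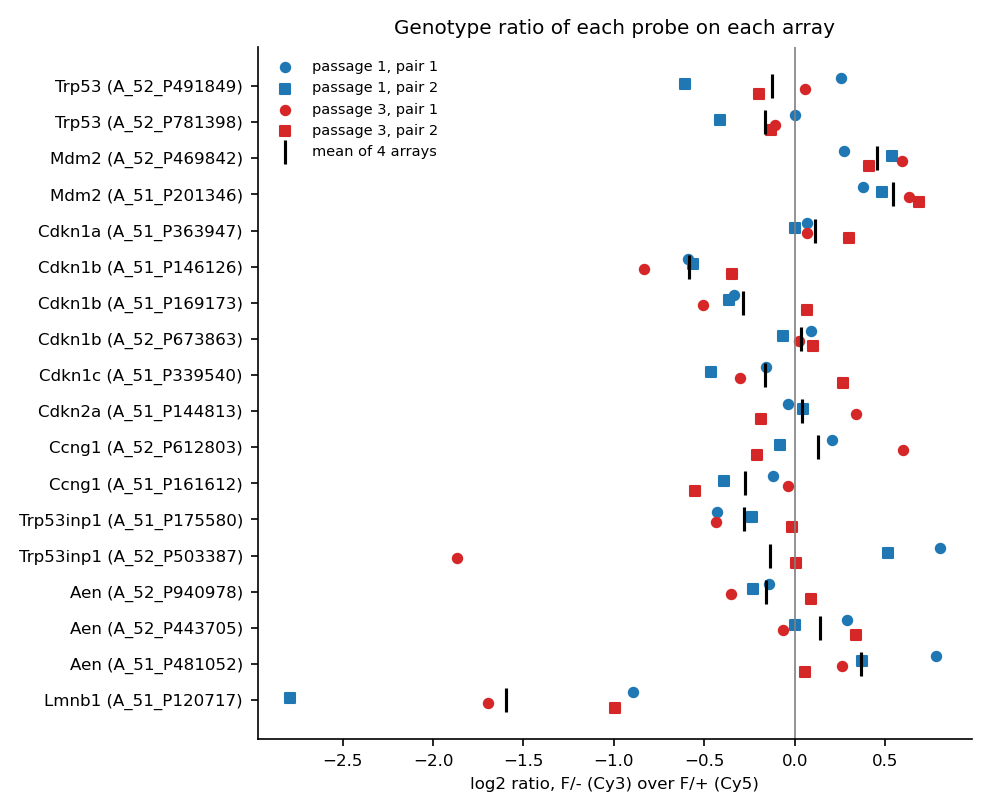
Log2 ratio of F/- (Cy3) over F/+ (Cy5) on the x axis for each of the 18 member probes, 1 point per array (blue passage 1, red passage 3; circles pair 1, squares pair 2), with a bar at the mean of 4 arrays. Both Mdm2 probes lie above 0 and Lmnb1 and the upper Cdkn1b probe below 0 on all 4 arrays, and the lower Trp53inp1 probe reads -1.87 on 1 late array.

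Mdm2 (GRCm38.p6, chr10:117688875-117710758), which encodes the ubiquitin ligase that holds p53 down, read higher in F/- on every array. For the probe spotted 10 times, A_51_P201346, the ratios were 0.37 and 0.48 at passage 1 and 0.63 and 0.69 at passage 3 in pairs 1 and 2, a mean of 0.54 ± 0.14 (SD, n = 4; 1.46-fold; limma adjusted p = 0.0257). Its levels were 10.42 and 9.96 in early F/+, 10.44 and 10.40 in late F/+, 10.79 and 10.44 in early F/-, and 11.08 in both late F/- cultures. The late F/- cultures were thus the highest of the 8 and did not overlap any other group. The other probe, A_52_P469842, had ratios of 0.27, 0.53, 0.59 and 0.41 in the same order, a mean of 0.45 ± 0.14 (SD, n = 4; limma adjusted p = 0.0358). Both F/+ means again lay below both F/- means, but within each genotype the late mean was here below the early one. The late F/- cultures, at 12.34 and 12.91, spanned much of the range. The Mdm2 calls were lost without early pair 1 (limma adjusted p = 0.147 and 0.150), without early pair 2 (0.0824 and 0.112) and without late pair 1 (0.0702 and 0.104). They were lost as well with median centring, where the means were 0.38 and 0.17 (limma adjusted p = 0.0615 and 0.376), and with pair means (0.0509 and 0.0511). With the scanner's own log ratio A_52_P469842 was not called (0.42, limma adjusted p = 0.0744).

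Trp53 (chr11:69580348-69591873) itself, the gene of the factor that Mdm2 degrades, showed no call. The probe spotted 10 times, A_52_P491849, had ratios of 0.25, -0.61, 0.058 and -0.20, so the pairs went opposite ways at both passages. Its levels were 10.44 and 10.86 in early F/+, 10.27 and 10.15 in late F/+, 10.69 and 10.25 in early F/-, and 10.33 and 9.95 in late F/-. The second probe, A_52_P781398, ranged from -0.41 to 0.0019. With passage the 2 probes read -0.44 and -0.63 in F/+ and -0.33 and -0.54 in F/-, with limma adjusted p between 0.190 and 0.631.

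Probes spotted 10 times give the spotting noise of a ratio on 1 array. Within an array the SD of the spots' ratios was between 0.025 and 0.085 for the 5 such members, while the SD between the 4 arrays was 0.37 for Trp53, 0.14 for Mdm2, 0.13 for Cdkn1a, 0.25 for Cdkn1b and 0.22 for Cdkn2a.

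**Figure D2:**
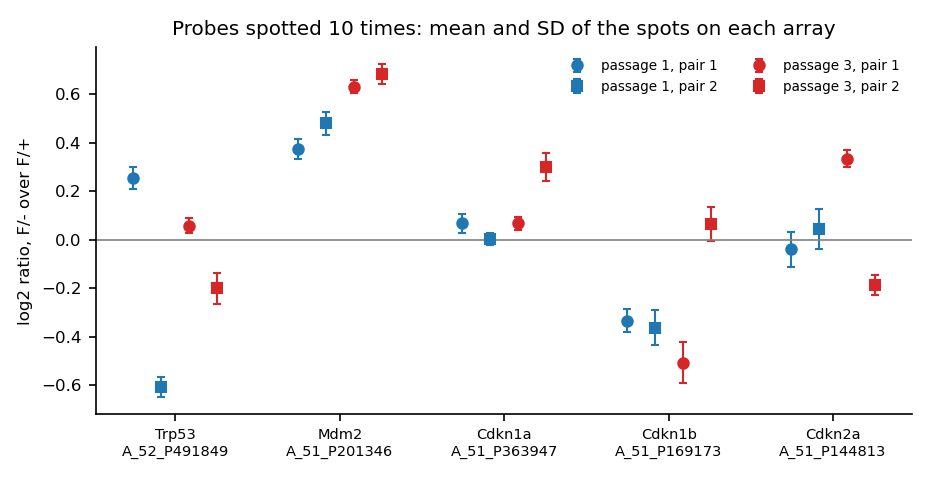
Mean and SD (bars) of the log2 ratio (y axis, F/- over F/+) over a probe's spots on each array, for the 5 members spotted 10 times, without spots flagged as outliers; colours and shapes give passage and pair. The bars are short beside the distances between arrays, as for Trp53, from -0.61 to 0.25.

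Among the p53 targets, Cdkn1a (chr17:29090979-29100722) gave close values in both genotypes. Its ratios were 0.069 and 0.0019 on the early and 0.068 and 0.30 on the late arrays, a mean of 0.11 ± 0.13 (SD, n = 4; limma adjusted p = 0.328). The levels were 14.07 and 14.28 in early F/+, 13.92 and 12.97 in late F/+, 14.14 and 14.28 in early F/-, and 13.99 and 13.27 in late F/-. Both late cultures of either genotype thus lay below both early ones, and pair 2 was the lower of the late cultures. The passage values were -0.73 in F/+ and -0.58 in F/- (limma adjusted p = 0.202 and 0.300). Without late pair 1 they were -1.20 and -0.94, both past the threshold (limma adjusted p = 0.0135 and 0.0379).

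Ccng1 (chr11:40748552-40755309), a p53 target that encodes cyclin G1, read higher at passage 3 in both genotypes. The brighter probe, A_52_P612803, stood at 13.00 and 12.99 in early F/+, 13.47 and 14.77 in late F/+, 13.20 and 12.91 in early F/-, and 14.07 and 14.57 in late F/-. No late value overlapped an early one of its genotype, but the late F/+ cultures lay further apart than the early and late F/+ means. The passage values were 1.13 ± 0.42 (SE) in F/+ and 1.26 ± 0.42 in F/- (limma adjusted p = 0.182 and 0.143), and 1.78 and 1.51 without late pair 1 (limma adjusted p = 0.00683 and 0.0154). The second probe, A_51_P161612, had smaller passage values, 0.44 and 0.40, with late above early again. The ratios of the brighter probe were 0.21, -0.080, 0.60 and -0.21. Those of the second were -0.12, -0.39, -0.041 and -0.55, so pair 2 read lower than pair 1 at each passage on both probes. The mean of the second, -0.28, became -0.61 with median centring (limma adjusted p = 0.169 and 0.0303).

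Trp53inp1 (chr4:11156441-11174379) encodes a stress-induced nuclear protein that promotes p53-dependent arrest and death, and its 2 probes disagreed. A_51_P175580 had ratios of -0.43, -0.24, -0.43 and -0.015, and passage values near 0 (-0.0066 in F/+ and 0.10 in F/-). Its mean ratio of -0.28 became -0.59 with median centring (limma adjusted p = 0.122 and 0.0462). A_52_P503387 had ratios of 0.80, 0.52, -1.87 and 0.0046. Its late level was 11.89 in F/+ and 10.02 in F/- on the array of pair 1 but 8.63 and 8.64 on that of pair 2, so the late arrays of the pairs lay far apart in both genotypes. Its passage values were -0.52 and -2.11 (limma adjusted p = 0.782 and 0.265), and without late pair 1 they were -2.14 and -2.80 (limma adjusted p = 0.00351 and 0.00199). Without late pair 2 the value in F/+ turned to 1.11 (limma adjusted p = 0.0534), that in F/- was -1.42 (0.0211), and the genotype mean was -0.61 (0.0306).

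Aen (chr7:78895927-78911209) encodes an exonuclease that p53 induces during apoptosis. Its brightest probe, A_52_P940978, read -0.14, -0.23, -0.35 and 0.090, with a mean of -0.16 that became -0.62 with median centring (limma adjusted p = 0.308 and 0.0373). A_52_P443705 read 0.29, -0.00057, -0.065 and 0.34. The dimmest, A_51_P481052, was above 0 on every array, at 0.78, 0.37, 0.26 and 0.055, a mean of 0.37 ± 0.30 (SD, n = 4; limma adjusted p = 0.0726, or 0.0481 with the pair as a block). With passage the 3 probes lay between -0.56 and -0.016, with 0 calls. The probes of this gene thus gave different signs for genotype.

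Cdkn1b (chr6:134920401-134925525), which encodes the Cdk2 inhibitor p27, was lower in F/- by the 1 probe called. That probe, A_51_P146126, made to the cDNA AK169586, had ratios of -0.59, -0.56, -0.84 and -0.35, a mean of -0.58 ± 0.20 (SD, n = 4; limma adjusted p = 0.0358). Its levels were 10.75 and 10.63 in early F/+, 10.15 and 9.93 in late F/+, 10.16 and 10.07 in early F/-, and 9.31 and 9.58 in late F/-. The early F/+ cultures were the highest and the late F/- cultures the lowest, while early F/- and late F/+ overlapped. The call was lost without early pair 1 (limma adjusted p = 0.172), early pair 2 (0.121) or late pair 1 (0.0716), with pair means (0.0545), with the scanner's own log ratio (0.0501) and with the mean of the gene's probes (-0.28, 0.103).

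The probe of Cdkn1b spotted 10 times, A_51_P169173, read -0.33, -0.36, -0.51 and 0.066, a mean of -0.28 (limma adjusted p = 0.160, or -0.43 and 0.0377 without late pair 2). The third, A_52_P673863, was not well above background in either channel on the late arrays and read between -0.068 and 0.10. With passage the first and second probes read -0.65 and -0.94 in F/+ and -0.67 and -0.81 in F/-, with limma adjusted p between 0.110 and 0.159. Both late cultures lay below both early ones on the first and second probes in each genotype. The third also read lower late, but it passed the filter through its early signals only and adds no support. With the pair as a block, the first probe was called lower at passage 3 in F/+ (limma adjusted p = 0.0455) and in F/- (0.0438), and the second in F/+ (0.0358). Without late pair 1, the first was called in F/+ (-0.76, limma adjusted p = 0.0489) and the second in F/+ and F/- (-1.32 and -0.90, 0.00946 and 0.0389).

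Cdkn1c (chr7:143458339-143461059), the gene of the third Cip/Kip inhibitor, p57, had ratios of -0.16, -0.46, -0.30 and 0.27 on its single probe. Its levels were 8.96 and 9.32 in early F/+, 8.65 and 8.33 in late F/+, 8.80 and 8.86 in early F/-, and 8.34 and 8.60 in late F/-. Late lay below early in each genotype, by -0.65 in F/+ and -0.35 in F/- (limma adjusted p = 0.233 and 0.502).

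On all 4 arrays and without the pair as a block, Cdkn2a (chr4:89274473-89294619) was the 1 member called with passage. Its probe, A_51_P144813, was not well above background in any of its 10 spots in either channel on the early arrays and was so in 10 of 10 in both channels on the late ones. Raw Cy3 signal, the F/- RNA, was 43.9 and 54.9 at passage 1 and 442 and 560 at passage 3, over backgrounds of 35.9 to 39.3. Raw Cy5 signal, the F/+ RNA, was 73.8 and 93.1 and then 538 and 968, over 58.8 to 61.8. The normalized levels were 5.98 and 5.97 in early F/+ and 8.75 and 9.68 in late F/+, and 5.94 and 6.02 in early F/- and 9.09 and 9.50 in late F/-.

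The early signals were not well above background. The rise is thus given against the lowest signal among probes well above background on the early arrays, or the probe's own where higher. As a mean of the 2 pairs, and with the offset of 50, it was 9.44-fold in F/+ and 9.29-fold in F/-. This is not a lower limit, since the fitted values changed with the setting. The fitted change had a limma adjusted p of 0.00176 in F/+ and 0.00166 in F/-. The probe passed the filter on dim probes through the late arrays only, where it was high. The call thus describes the fit and adds no independent support. The fitted log2 values, 3.24 and 3.31, depend on the background offset, and with an offset of 0 in place of 50 they were 5.49 and 5.60. Over all alternatives the lowest fitted values were 2.78 in F/+ and 3.08 in F/-. The call was lost without early pair 1 (limma adjusted p = 0.0883 and 0.100) and without early pair 2 (0.0857 and 0.0907), where 1 early array was left, while the fitted values were between 3.24 and 3.35. Its ratios between genotypes were 0.34 and -0.19 on the late arrays, opposite in the 2 pairs. The sources used here do not give the probe's position, and transcripts of the upstream and downstream starts are not told apart.

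**Figure D3:**
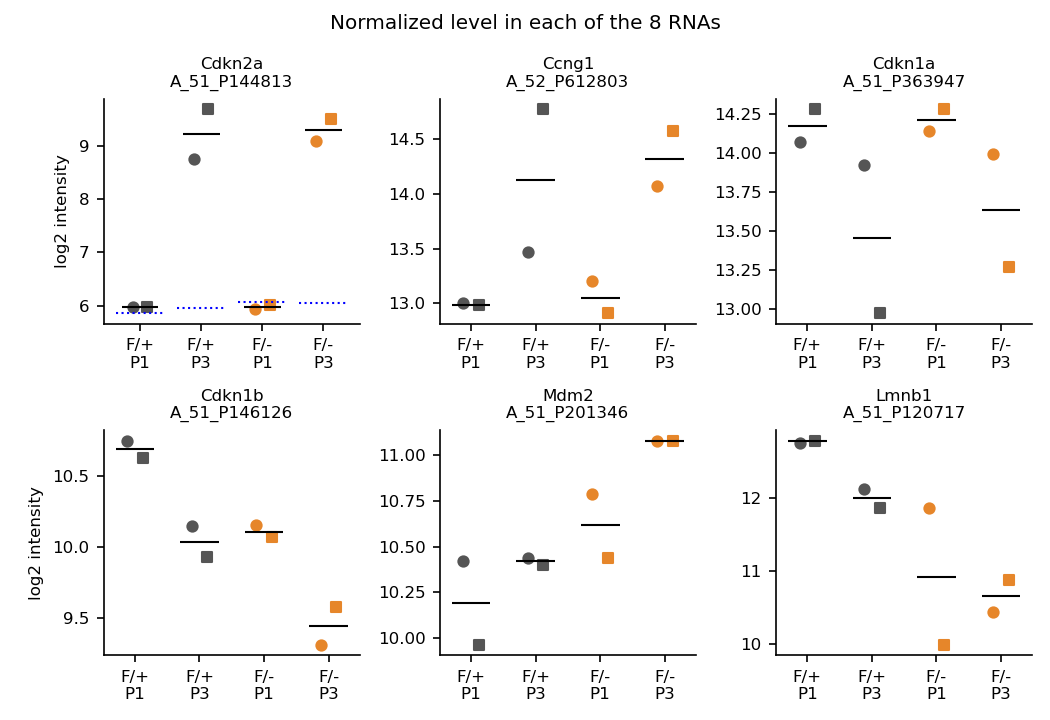
Normalized log2 intensity (y axis, each panel on its own scale) of 6 member probes in the 8 RNAs, grouped by genotype and passage (P1, P3), with grey points for F/+, orange for F/-, circles for pair 1, squares for pair 2 and a bar at each group mean. Dotted lines in the Cdkn2a panel give the mean lowest signal among probes well above background, near which all 4 early values lie.

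Of the 18 member probes, 1, Cdkn2a, was called with passage in F/+, against 5.66% of all probes, and the same 1 in F/-, against 5.16%. Called higher were 3.22% and 2.9% of all probes, and called lower 2.44% and 2.25%. Both late values lay above both early ones for 3 member probes in F/+ and 4 in F/- (27.2% and 29.2% of all probes), and below them for 8 and 9 (24.8% and 27.6%). In both genotypes late was above early for 3 (21% of all), Cdkn2a and both of Ccng1, and below for 6 (18.9%), the 3 of Cdkn1b and those of Cdkn1a, Cdkn1c and the second of Trp53. Of these, Cdkn2a passed the filter on dim probes through the late arrays only, and the third of Cdkn1b through the early arrays only. The channels share arrays, so an array effect enters both genotypes. With the pair as a block, 2 member genes were called in each genotype, Cdkn2a and Cdkn1b, and all calls went from 2007 to 4124 in F/+ and from 1829 to 3878 in F/-.

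**Figure D4:**
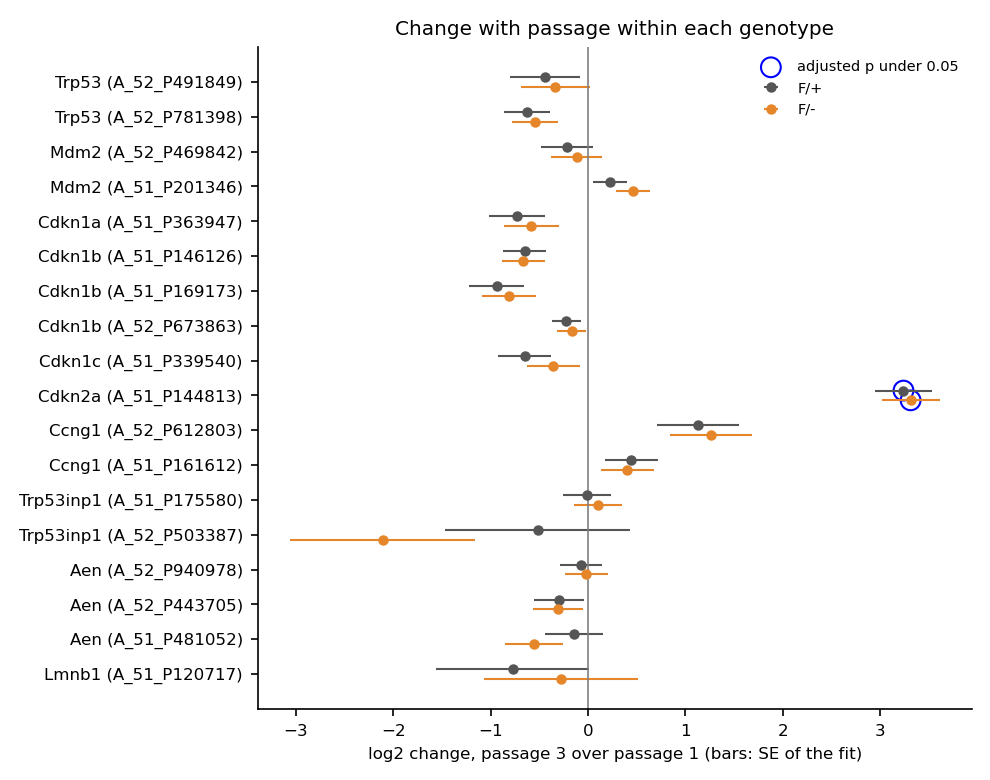
Log2 change from passage 1 to passage 3 on the x axis for each member probe in F/+ (grey) and F/- (orange), with the SE of the fit as bars and a blue ring where the limma adjusted p was under 0.05. Only Cdkn2a is ringed, with fitted changes of 3.24 in F/+ and 3.31 in F/-. Its plotted size depends on early signals not well above background. The SE bars also stay off 0 for probes that did not pass the test, such as those of Ccng1 above 0 and of Cdkn1a, Cdkn1b and Cdkn1c below it.

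Lmnb1 (chr18:56707813-56753424) had the lowest mean ratio of the members, and the lowest ratio on 3 of 4 arrays. Its single probe, A_51_P120717, read -0.89 and -2.79 at passage 1 and -1.70 and -0.99 at passage 3 in pairs 1 and 2, a mean of -1.59 ± 0.87 (SD, n = 4), or 0.331 of the F/+ level. By size this mean stood at rank 14 of 35563 probes, but its limma adjusted p was 0.0535. The levels were 12.75 and 12.78 in early F/+, 12.12 and 11.86 in late F/+, 11.86 and 9.99 in early F/-, and 10.43 and 10.87 in late F/-. No F/- culture read above an F/+ culture, although the lowest F/+ and the highest F/- value were both 11.86. The early F/+ cultures were nearly equal, and the early F/- cultures were the furthest apart of any group. The means were -1.84 ± 1.34 (SD, n = 2) at passage 1 and -1.35 ± 0.50 at passage 3 (limma adjusted p = 0.138 and 0.215). With passage the values were -0.77 in F/+ and -0.28 in F/- (limma adjusted p = 0.600 and 0.868), and that in F/- turned to 0.66 without early pair 1.

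The call for Lmnb1 depended on the processing. The limma adjusted p was 0.0214 with an offset of 0, 0.0229 with median centring, 0.0458 with the scanner's log ratio and 0.0445 with a stricter filter, with means between -1.82 and -1.59. Other settings did not call it, with a limma adjusted p of 0.0603 without background subtraction and 0.0588 without the filter on dim probes. The same held with the pair as a block (limma adjusted p = 0.05855), pair means (0.0509) and gene means (0.0619). Without 1 array it was not called, with means of -2.07 without early pair 1, -1.12 without early pair 2, -1.42 without late pair 1 and -1.77 without late pair 2 (limma adjusted p = 0.147, 0.0886, 0.137 and 0.0555). The other B-type lamin gene, Lmnb2, read higher in F/-, at 1.12, 0.63, 0.70 and 0.68, a mean of 0.78 (limma adjusted p = 0.0264). Lmna, the A-type lamin gene, was lower, with a mean of -0.44 (limma adjusted p = 0.0334).

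The other genes of these pathways were taken from lists, with 1 probe per gene. In the comparison of genotypes over both passages 4.7% of all genes were called higher and 3.43% lower, 8.13% in all, around a median of -0.023. These calls treat the 4 arrays as samples, and with pair means 0 probes of the array were called. Among 39 measured p53 targets, 2 were called higher and 1 lower, with a median of 0.053. The receptor gene Epha2 (0.82) and the DNA repair gene Xpc (0.47) were higher, and Perp (-0.55), a desmosome gene that p53 and p63 induce, was lower. Among 17 regulators of p53, 0 were called higher and 4 lower, with a median of 0.023. These were the ribosomal protein genes Rpl5 (-0.69) and Rpl11 (-0.57), whose products bind Mdm2, the nucleolar gene Npm1 (-0.53) and the checkpoint kinase gene Chek1 (-0.41).

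Of 4 further Cdk inhibitor genes, Cdkn3 fell (-0.89), and Cdkn2b, which encodes p15, was higher (0.60, over 3 arrays because its late pair 2 value was missing). Its F/+ level was 10.33 and 10.30 early and 14.09 in the 1 late culture measured, its F/- level 10.80 and 11.07 early and 14.68 late, and this change with passage was not tested. Among 18 cyclin and Cdk genes, 2 were higher and 4 lower (median -0.14), with the D-type cyclin gene Ccnd3 at 0.72 and the mitotic cyclin genes Ccnb2, Ccna2 and Ccnb1 at -0.66, -0.64 and -0.54. Of 18 Rb and E2F genes, E2f2 (-1.12) and E2f7 (-0.81) were lower and Tfdp1 (0.42) higher (median -0.11). Of 13 lamin and envelope genes other than Lmnb1, 1 was higher and 2 lower (median -0.15), namely Lmnb2, and Lmna with the chromatin gene Hmgb2 (-0.81). Of 25 proliferation genes, 0 were higher and 4 lower (median -0.28): Cdc20 (-0.74), Bub1 (-0.52), Kif20a (-0.40) and Rrm1 (-0.33). At passage 3 the proliferation median was -0.51, with 25 of 25 below 0, and at passage 1 -0.070, with 15 of 25. Of all genes, 43.3% were above 0 at passage 3 and 45.8% at passage 1. At either passage 0 proliferation genes were called, where limma called 0% of all probes.

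Among 20 genes known from arrested cells, a list of secreted genes that also holds the galactosidase gene Glb1, 5 were called higher and 0 lower in F/- (median 0.32). The largest were the chemokine genes Ccl2 (0.86) and Cxcl2 (0.76), the IGF-binding gene Igfbp3 (0.62) and the cytokine gene Il1a (0.50). Of the macrophage markers, 2 of 7 were called higher in F/- (median 0.57), with 6 of 7 above 0 against 43.1% of all genes. Of the keratinocyte markers 2 of 7 were called lower (median -0.13). Their part in the values of the secreted genes was not tested. With passage, 6.35% of all genes were called in F/+, 3.77% higher and 2.58% lower, and 5.82% in F/-, 3.32% higher and 2.5% lower. Plau, the urokinase gene, rose by 2.45 in F/+ and 3.13 in F/-, and Cxcl2 fell by 1.82 in F/+ and fell by 2.42 in F/-; the galactosidase gene Glb1 rose in F/+ (0.86). These made 2 higher and 1 lower of 20 in F/+ (median 0.54) and 1 and 1 in F/- (median 0.41).

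The p53 targets called with passage were 1 higher and 3 lower of 39 in each genotype, with medians of 0.11 in F/+ and 0.073 in F/-. Klf4, a factor of differentiation, was at -2.15 and -1.76, the kinase gene Plk3 at -1.75 and -1.71, the p53 phosphatase gene Ppm1d at -0.74 and -0.80, and Xpc at 0.69 and 0.89. Of the proliferation genes, 0 were called in F/+ (median -0.17) and 5 were called lower in F/- (median -0.66), with Aurkb at -1.68, Mcm5 at -1.33, Plk1 at -1.13 and Tyms at -0.89. The difference between genotypes in this change is the late minus early ratio. Its median was -0.53 with 25 of 25 below 0, against a median of -0.0065 and 48.3% above 0 over all genes. Of these 25, 0 passed limma's test, as did 0% of all probes (smallest adjusted p 0.82). In the cyclin list Cdc25b fell in both (-0.90 and -1.34) and Ccna2 in F/- (-1.02). In the Rb and E2F list Tfdp2 rose in both (1.10 and 0.93) and E2f7 fell in F/- (-1.30). Ep300, a coactivator of p53, fell in F/+ (-0.94), 1 of 17 p53 regulators. Of the lamin and envelope genes 0 were called with passage, nor any of the 3 further Cdk inhibitors measured on all arrays, where Cdkn2c read -1.07 in both genotypes.

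**Figure D5:**
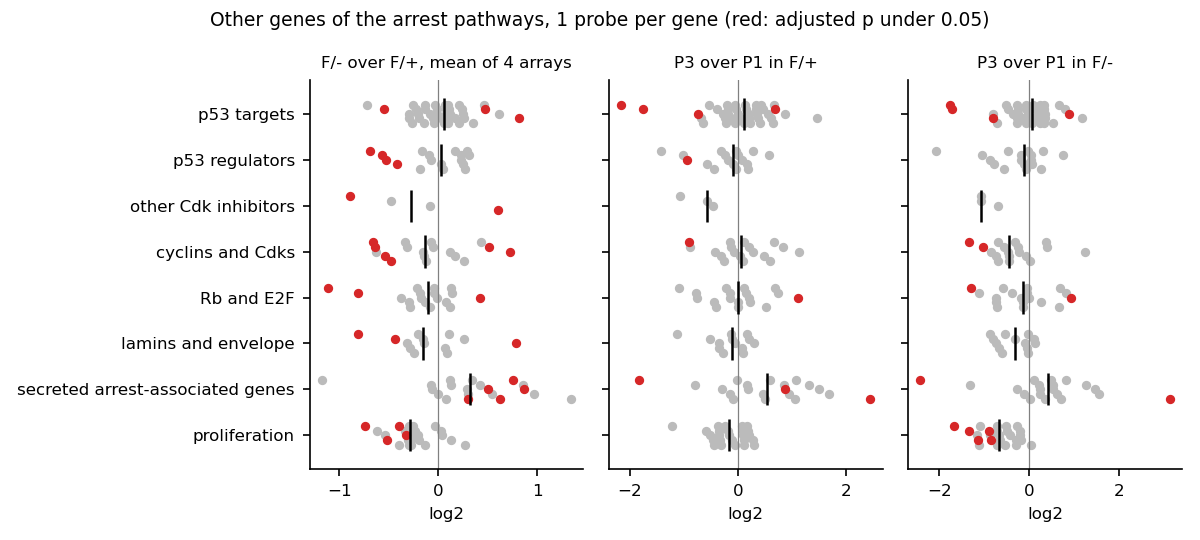
Log2 values (x axis) of single genes in 8 lists, for genotype over both passages (left) and passage in F/+ (middle) and F/- (right), with red points for limma adjusted p under 0.05, grey for the rest and a bar at the list's median. The secreted list lies mostly above 0 and the proliferation list mostly below it in the left panel, with medians of 0.32 and -0.28.

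The 5 genes whose levels ran closest to a member over the 8 RNAs were ranked among 19798 genes, as a description in which the channels share arrays and pairs. For Cdkn1a these were Slc45a3 and the transcript ENSMUST00000079970 (Pearson's r = 0.995 each), Hspbp1 (0.994), Pip5k1a (0.993) and Desi1 (0.99). For Cdkn2a they were ENSMUST00000049389 (0.999), Dgke (0.997), and Ccn4, Man2a2 and Isg20 (0.996 each), where r follows the step from passage 1 to 3. For Lmnb1 the values were lower, with Fut7 at 0.973, TC1430760 at 0.972, Ndufa9 at 0.956, Rnf20 at 0.951 and Phykpl at 0.944.

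The cultures carried keratinocyte markers, and the summed levels of macrophage, melanocyte and endothelial markers were lower at passage 3 in both genotypes. Those of fibroblast markers were higher at passage 3 in F/-. A sum follows its brightest genes, and single markers did not all go its way. All 7 keratinocyte markers were above background in both channels on all arrays, with a summed linear level of 372000 to 443000 in early and 426000 to 428000 in late F/+, and 304000 to 348000 and 255000 to 269000 in F/-. The sum of 7 macrophage markers went from between 20600 and 21900 to between 3170 and 3480 in F/+ and from between 22800 and 33500 to between 8060 and 12600 in F/-. Of these 7, 6 fell with passage in each genotype, while Cd14 read higher (8.83 and 9.13 early, 9.72 and 9.66 late in F/+). That of 4 melanocyte markers went from between 66000 and 79000 to between 21000 and 24500 in F/+, and from between 58400 and 64600 to between 22100 and 22300 in F/-. For 3 endothelial markers the sums were 1270 to 1390 and then 309 to 362 in F/+, and 1010 to 1200 and then 329 to 350 in F/-. Of these 3, 2 fell in each genotype. In F/+ Kdr went from 10.25 and 10.07 to 7.16 and 7.44, while Cdh5 went from 6.06 and 6.24 to 6.25 and 6.47. The 7 fibroblast markers summed to 2000 to 3120 and then 2130 to 3190 in F/+, and to 2460 to 2490 and then 4440 to 6350 in F/-. With passage in F/- 6 of these 7 were above 0 (median 0.48, 0 called), against 51.5% of all genes, and Pdgfra was below it. Col1a1 went from 8.115 and 8.388 to 10.95 and 10.67 there. The 3 leukocyte markers lay between 429 and 728, and the 3 smooth muscle markers between 18400 and 78100. All but Tyr of the melanocyte and 1 of the endothelial markers were above background in both channels on every array, and the part of other cells in the Cdkn2a, Mdm2, Cdkn1b and Lmnb1 values was not tested.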

How the data were processed

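The authors deposited 1 Agilent Feature Extraction 9.1.3.1 file per array (tool per the submitters' processing notes), which per the file headers holds raw intensity, background and processed intensity per spot and channel, and a log10 ratio, Cy5 over Cy3. Their deposited value table equals minus this log10 ratio (largest gap 4.96e-06; medians -0.00223, 0, 0 and -0.000733), and its scale, centring and direction are thus known. In R 4.3.3 with limma 3.58.1, raw intensities were corrected with normexp (offset 50), normalized by loess and, for channels, Aquantile. The filter kept 35563 of 41174 probes, those detected well above background on 2 arrays or more and missing on 1 at most. On the arrays 75.8% to 87.9% of gene spots were well above background and 0 saturated; the number of arrays limits the precision.

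Genotype ratios were fitted on all 4 arrays by passage (2 residual degrees of freedom, 2.81 from the prior). Passage was fitted per channel (intraspot correlation 0.741). Tests were two-sided with Benjamini-Hochberg adjustment. The scripts were tested on simulated data. The mice are the replicates, and pair numbers were assumed to link mice across passages; deviations of same-numbered arrays correlated at -0.00047, and ratios of any 2 arrays at 0.477 to 0.581. All arrays lay on 1 slide with 1 scan, so no slide block could be fitted. A gene in a list was represented by its brightest kept probe, and of each list up to 4 called genes, or up to 2 others, were named. Alternatives were other background, normalization and filter settings, the scanner's log ratio, the pair as a block, pair means, gene means and each array left out. The members and lists were chosen with earlier results of these data known. Coordinates are of the genes in RefSeq (GRCm38.p6), not of probes.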

Additional observations from a re-analysis of the deposited data

How the results depend on the processing

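Counts of member genes called (of 10, 1 probe each) and of all probes called were followed through every alternative. For genotype over both passages, 2 member genes and 3145 probes became 4 member genes with median centring, 1 and 1933 with the scanner's log ratio, 1 and 1569 with gene means, and 0 and 0 with pair means, which leave 2 samples. Leaving out each array gave 0 to 2 member genes and 0 to 3966 probes. At passage 1, 69 probes were called with an offset of 0, none of them a member. For passage in F/+, 1 member gene and 2007 probes became 2 and 4124 with the replicate block, and 0 to 4 and 183 to 4563 without each array. In F/-, 1 and 1829 became 2 and 3878 with the replicate block, and 0 to 3 and 106 to 3099 without each array. The pair as a block changed no other call than those of Aen and Cdkn1b given above.

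Among single member probes, 1094 values kept their direction and side of the threshold, 21 lost a call, 23 gained one, 84 changed sign without a call on either side, and 0 reversed a called value. The cause of these changes was not tested. Fits without 1 array leave a passage with 1 array, assumed to vary like the others, and take the intraspot correlation of all 4. Signal near background limits Cdkn2a at passage 1 and the third Cdkn1b probe at passage 3.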
